A study of Capra hircus with 9 samples.

Results

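The Hox cluster miRNAs are the microRNAs encoded inside the clusters of Hox genes: miR-10, miR-196 and miR-615. All entries of the deposited count table that carry one of these 3 names were taken, with any letter, arm or ending, which gave 11 of 2189 mature miRNA entries: 6 of miR-10, 4 of miR-196 and 1 of miR-615. They were measured by small RNA sequencing of the submandibular gland, a salivary gland under the jaw, in 9 healthy female Lubo goats: 3 aged 1 month, 3 aged 12 months and 3 aged 24 months, with no treatment and shared housing. Each library came from a separate goat. The libraries are numbered 1, 2 and 3 in the youngest group, 3, 4 and 5 in the middle group, and 2, 3 and 5 in the oldest. Whole gland tissue was used, so fewer cells of a type and less RNA per cell cannot be told apart.

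Hox genes set position along the body axis, and the miRNAs that lie between them are switched on with their neighbours. In vertebrates miR-10 and miR-196 repress messages of several Hox genes, miR-196 being known for directing cleavage of the HOXB8 message. miR-10b is common in mesenchymal and endothelial cells, and miR-196b is known from blood progenitor cells, where the HOXA genes beside it are active. In the RefSeq gene table of the goat assembly ARS1.2, the 6 goat-named entries matched 4 hairpin genes. MIR10A lay between HOXB5 and HOXB3, MIR10B between HOXD8 and HOXD3, MIR196A between HOXB13 and HOXB9, and MIR196B between HOXA9 and HOXA10, among the Hox genes that table names.

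The sequences are shown because the entries differ from each other by single bases or by where a read begins and ends. They are printed 5′ to 3′ with T for U as in the deposited table, and capitals mark the seed, bases 2 to 8, with which a miRNA pairs to its targets.
chi-miR-10b-5p: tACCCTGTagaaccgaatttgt
chi-miR-10a-5p: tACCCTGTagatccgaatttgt
miR-10-x: aCCCTGTAgaaccgaatttgtga
chi-miR-10b-3p: aCAGATTCgattctaggggaat
miR-10-y: aGATTCGAttctaggggaataa
chi-miR-196b: tAGGTAGTttcctgttgttgg
miR-196-x: tAGGTAGTttcctgttgttgggt
chi-miR-196a: tAGGTAGTttcatgttgttgg
miR-615-y: tCCGAGCCtgggtctccctct
The 5p forms of miR-10a and miR-10b share the seed ACCCTGT and differ by T12A, counted from 1 at the 5′ end with the miR-10a base first. The 3 entries chi-miR-196a, chi-miR-196b and miR-196-x share the seed AGGTAGT, and chi-miR-196a and chi-miR-196b differ by A12C, with the miR-196a base first. Both family splits therefore fall on position 12, outside the seed. miR-196-x is chi-miR-196b with 2 more bases at the 3′ end, and miR-10-x is chi-miR-10b-5p begun 1 base later and run on by 2 bases, which moves its seed to CCCTGTA. In the same way miR-10-y begins 2 bases inside chi-miR-10b-3p and runs on by 2. These 3 entries are forms of the same RNAs and are no separate evidence. None of the 11 entries shared its full sequence with another entry. Outside the members, 1 entry in the table carried any of their seeds, miR-2755-y with ACCCTGT and 3 reads in all.

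Depth ran from 8288492 to 13277448 reads a library. Of the 11 members, 7 passed the filter on low counts (edgeR filterByExpr) and were tested among 937 entries, and the other 4 are given by their reads. Levels are TMM-scaled CPM (counts per 1000000 reads of the library, after edgeR's scaling of its total), as mean ± SD of 3 goats. The library 1-month 2 stood apart: the leukocyte marker list (13 entries of miR-142, miR-150, miR-155 and miR-223) took 11.0% of its reads against 2.62% and 4.46% in 1-month 1 and 3, and the exocrine gland list (6 entries of miR-148a and miR-375) took 1.25% against 8.34% and 6.27%. At 12 and 24 months the leukocyte list took 0.111 to 0.149% and the gland list 14.1 to 17.7%. The epithelial list took 0.797 to 5.31% at 1 month and 9.74 to 11.2% later. Entries of the exocrine gland and epithelial lists were thus detected in each of the 9 libraries, with both lists at their lowest in 1-month 2.

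chi-miR-10b-5p, the main product of the MIR10B hairpin, was by far the most abundant member. It ranked 45 of 2189 entries by mean unscaled CPM and held 87.8 to 93.8% of all reads of the 11 members in each library. Its level was 5433, 2974 and 7740 CPM in 1-month libraries 1, 2 and 3, then 4379, 3360 and 2534 CPM in 12-month libraries 3, 4 and 5, and 2663, 3304 and 5060 CPM in 24-month libraries 2, 3 and 5. The 2 highest values were at 1 month, but 1-month 2 lay among the older goats, and all 3 ages overlapped. Age means were 5382 ± 2384, 3425 ± 924 and 3676 ± 1241 CPM. In edgeR's quasi-likelihood test the log2 difference was −0.65 (95% interval −1.58 to 0.27, adjusted p = 0.268) for 12 against 1 month and −0.55 (−1.47 to 0.37, adjusted p = 0.346) for 24 against 1 month. Between 12 and 24 months it was 0.10 (−0.82 to 1.02, adjusted p = 0.998). None passed, and the intervals from 1 month hold both a fall of more than 2-fold and a small rise. Single libraries moved these differences both ways. Without 1-month 2 they were −0.97 (adjusted p = 0.0599) at 12 months and −0.87 (adjusted p = 0.0749) at 24 months, and without 1-month 3 they were −0.29 (adjusted p = 0.644) and −0.17 (adjusted p = 0.815). The lowest on leaving out a library were −1.22 (adjusted p = 0.151, without 12-month 3) and −1.04 (adjusted p = 0.168, without 24-month 5).

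Part of such moves was shared by the whole table. Over 19 alternative settings the median log2 difference of all entries ran from −0.40 (without 12-month 5) to 0.12 (upper quartile factors) for 12 against 1 month, around −0.02 in the fit reported here, from −0.36 to 0.07 for 24 against 1 month, around −0.06, and from −0.09 to 0.24 for 24 against 12 months, around −0.03. Relative to that median, chi-miR-10b-5p stood at −0.64 for 12 against 1 month (−1.03 to −0.33 over the settings) and at −0.49 for 24 against 1 month (−0.81 to −0.12), and chi-miR-10b-3p at −0.98 (−1.38 to −0.51) and −1.07 (−1.40 to −0.54), the ends of each range being the fits without 1-month 2 and without 1-month 3. Relative to it, miR-10-x for 24 against 1 month was 0.05 (−0.31 to 0.43), so its sign depends on the scale.

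miR-10-x, the form of chi-miR-10b-5p with the shifted seed, stood at 229, 84.2 and 205.9 CPM in the 1-month goats, at 169.8, 156 and 78.8 CPM in the 12-month goats, and at 85.0, 215 and 213.9 CPM in the 24-month goats. At each age 1 library lay between 78.8 and 85.0 CPM and the others between 156 and 229 CPM, so the 3 ages overlapped throughout. As a share of its reads and those of chi-miR-10b-5p together it took 2.59 to 4.05% in the youngest goats, 3.01 to 4.44% in the middle group and 3.09 to 6.11% in the oldest. The highest share, 6.11% (exact binomial 95% interval 5.85 to 6.39%) in 24-month 3, had an interval clear of that of each of the other 8 libraries, while the ages overlapped. Its log2 differences were −0.36 (adjusted p = 0.613) for 12 against 1 month, 0.35 (adjusted p = 0.998) for 24 against 12 months and −0.02 (adjusted p = 0.984) for 24 against 1 month.

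chi-miR-10b-3p, the passenger arm of the same hairpin, was measured at 32.6, 20.8 and 61.5 CPM in 1-month libraries 1, 2 and 3, at 23.4, 13.1 and 21.2 CPM in 12-month libraries 3, 4 and 5, and at 15.3, 13.9 and 23.3 CPM in 24-month libraries 2, 3 and 5. The order of the 1-month libraries was the same as for the 5p arm, with library 3 highest and library 2 lowest, and library 2 alone overlapped the older goats. Age means were 38.3 ± 20.9, 19.2 ± 5.42 and 17.5 ± 5.05 CPM, and the last of these differed by less than their spread. The log2 difference was −0.99 (95% interval −2.04 to 0.05, adjusted p = 0.143) for 12 against 1 month and −1.13 (−2.18 to −0.08, adjusted p = 0.0922) for 24 against 1 month, neither of which passed. Without 1-month 2 both passed, at −1.32 (adjusted p = 0.0398) and −1.46 (adjusted p = 0.0246), and without 1-month 3 they were −0.46 (adjusted p = 0.482) and −0.59 (adjusted p = 0.382). The 3p arm made 0.596 to 0.788% of the reads of both arms in the 1-month goats, 0.389 to 0.829% in the 12-month goats and 0.418 to 0.572% in the 24-month goats. The 5p arm was thus the bulk of the hairpin's reads in each library. miR-10-y, the shifted form of the 3p arm, had 4, 6 and 7 reads in the 1-month libraries, 2, 2 and 5 in the 12-month libraries and 0, 0 and 4 in the 24-month libraries, and was not tested.

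chi-miR-10a-5p comes from the HOXB cluster and shares its seed with chi-miR-10b-5p. It stood at 195.4, 106 and 222 CPM in the 1-month goats, at 205.2, 117 and 147.5 CPM in the 12-month goats, and at 83.1, 229.6 and 139 CPM in the 24-month goats. The lowest and the highest of the 9 values were both at 24 months. Means of 174.5 ± 60.5, 157 ± 44.6 and 151 ± 73.9 CPM differed by less than the spread at any age, with log2 differences of −0.16 (95% interval −1.15 to 0.84, adjusted p = 0.816), −0.06 (−1.06 to 0.94, adjusted p = 0.998) and −0.21 (−1.21 to 0.79, adjusted p = 0.765) for 12 against 1, 24 against 12 and 24 against 1 month. Of the reads of both goat-named miR-10 5p entries, miR-10a held 2.78 to 3.47% in the youngest group, 3.38 to 5.50% in the middle group and 2.68 to 6.50% in the oldest. Libraries of 1 age differed in this share by more than counting error, as 24-month 3 (6.50%, exact interval 6.23 to 6.78%) and 24-month 5 (2.68%, 2.53 to 2.83%) show. Reads of the 2 RNAs differ at 1 base, and the part of mismatches in mapping was not tested. The other arm, chi-miR-10a-3p, had 15, 8 and 6 reads in all in the 3 groups, youngest first, and was not tested.

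**Figure D1:**
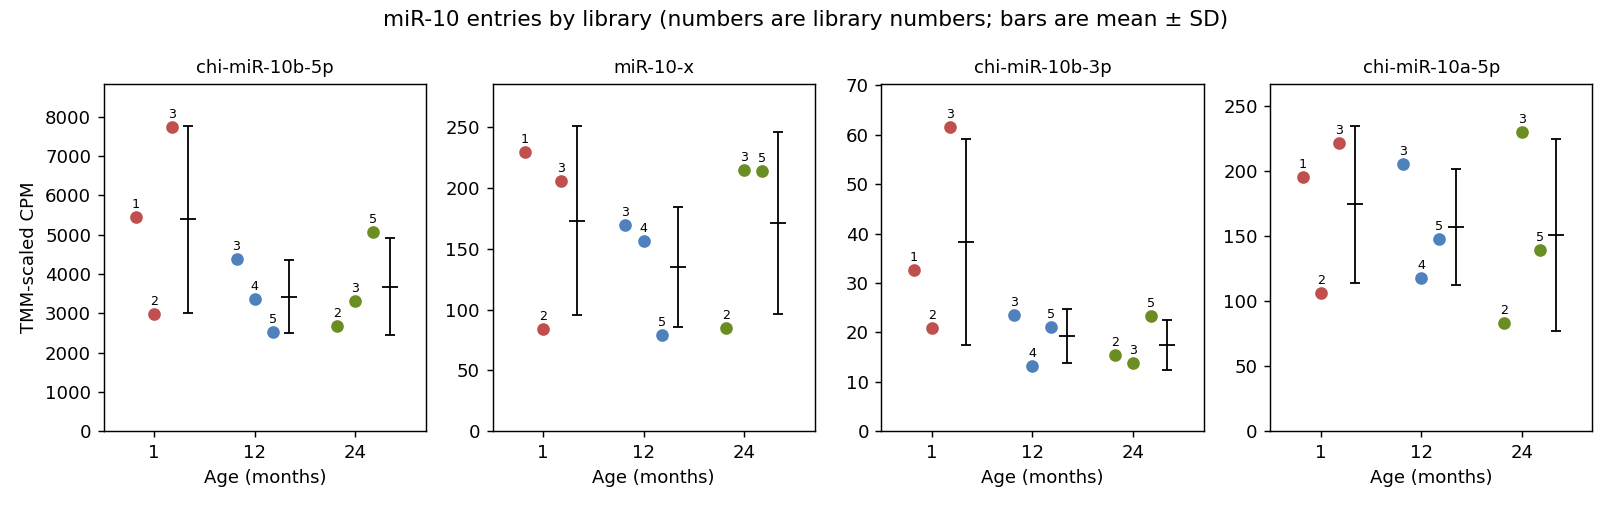
Each panel plots 1 miR-10 entry that passed the filter, with TMM-scaled CPM on the vertical axis, age in months on the horizontal axis, 1 point a library (numbered) and the mean ± SD of 3 goats as a bar. In each panel the ages overlap, and 1-month library 2 is the lowest 1-month library.

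chi-miR-196b, encoded between HOXA9 and HOXA10, had the smallest adjusted p of the 7 tested members for 24 against 1 month and over the 3 ages. Of its 554 reads at 1 month, libraries 2 and 3 held 309 and 103 and library 1 the rest. It had 4, 0 and 36 reads in 12-month libraries 3, 4 and 5, and 3, 0 and 0 reads in 24-month libraries 2, 3 and 5. Its level was 11.6, 24.6 and 7.27 CPM in 1-month libraries 1, 2 and 3, then 0.515, 0 and 3.23 CPM in the 12-month goats, and 0.289, 0 and 0 CPM in the 24-month goats. Each 1-month library lay above each older one, while the older ages overlapped. A count of 0 allows up to 3 reads. That is 0.337 unscaled CPM in 12-month 4, and 0.322 and 0.307 unscaled CPM in 24-month 3 and 5. Pooled over each age, 554 reads stood against 40 in the 12-month goats and 3 in the 24-month goats. The ratio of unscaled CPM was 11.5 (exact counting interval 8.33 to 16.3) for 1 against 12 months and 157 (53.3 to 762) for 1 against 24 months, where the intervals cover counting error only. Without 24-month 2, which held the 3 reads, it was at least 100-fold, against the 3 reads that a count of 0 allows over the group. Such bounds, here and below, take the higher count as it stands, without its counting error.

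In the edgeR test chi-miR-196b fell between 1 and 24 months (adjusted p = 0.00877, lower in 3 of 3 goats), and it differed over the 3 ages together (adjusted p = 0.0103). The call between 1 and 24 months held in each of 19 alternative settings (adjusted p from 8.33e-09 to 0.0446). However, chi-miR-196b reached the filter's 0.967 unscaled CPM in all 3 1-month libraries and in 1 of the 6 later ones. It was thus tested only because it was high at 1 month, and all settings but the fit with no filter share this selection. The call held without 1-month 2 (adjusted p = 0.0228), where the pooled ratio was 111 (37.6 to 543), and it was weakest without 24-month 3 (adjusted p = 0.0446). Between 1 and 12 months the log2 difference was −3.49 (SE 1.16) and did not pass by edgeR (adjusted p = 0.0566). It passed by DESeq2 (adjusted p = 0.00643), by limma voom (0.0256) and without 12-month 5 (0.0182), the library that held 36 of the 40 reads at that age, without which the pooled ratio was 67.6 (26.2 to 249). Without 1-month 2 it did not pass (−2.89, adjusted p = 0.125). It passed in 6 of 19 alternative settings. The adjusted p ran from 0.000155 (edgeR with no filter on low counts) to 0.343 (edgeR with the replicate number as a block). Between 12 and 24 months it did not pass (unadjusted p = 0.0352, adjusted p = 0.998), and the pooled ratio of 13.6 (4.34 to 68.9) rested on 12-month 5.

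The longer form miR-196-x followed the same libraries, with 24, 64 and 13 reads in the 1-month goats, 0, 0 and 5 in the 12-month goats and none in any 24-month goat. Its 5 reads at 12 months came from library 5, which also held most of the chi-miR-196b reads at that age. It fell between 1 and 24 months (edgeR adjusted p = 0.0169). Pooled unscaled CPM put it at least 28.6-fold higher at 1 month, against the same limit. On leaving out each library the bounds ran from 16.8 (without 1-month 2) to 37.1 (without 1-month 3). That call was lost without 24-month 3 (adjusted p = 0.0536), and the difference over the 3 ages (adjusted p = 0.0202) was lost without 1-month 2 (0.0789). Like chi-miR-196b, miR-196-x passed the filter only through the 1-month libraries. Between 1 and 12 months it did not pass (adjusted p = 0.057) and passed by DESeq2 (0.0193) and limma voom (0.0391). It passed in 6 of 18 alternative settings there, with an adjusted p of up to 0.405 (edgeR with the replicate number as a block). It took 14.5%, 17.2% and 11.2% of the reads of both forms in 1-month libraries 1, 2 and 3, and 12.2% (exact interval 4.08 to 26.2%) in 12-month 5, and these intervals overlapped.

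The entry chi-miR-196a, matched to the hairpin gene MIR196A in the HOXB cluster, was rare. It had 2, 13 and 11 reads in the 1-month goats, 2, 0 and 2 in the 12-month goats and none in the 24-month goats, and was not tested. Its pooled level was 0.738 unscaled CPM at 1 month. At 24 months it was at least 7.35-fold lower, against the limit of 0.100 unscaled CPM. This takes its 26 reads at 1 month without counting error. Of the goat-named miR-196 reads at 1 month it made 1.39%, 4.04% and 9.65% in libraries 1, 2 and 3 (exact intervals 0.169 to 4.93%, 2.17 to 6.80% and 4.92 to 16.6%). Its highest count was in 1-month 2, as for chi-miR-196b, and its highest share was in 1-month 3. Reads of chi-miR-196a and chi-miR-196b differ at 1 base, and the part of mismatches in mapping was not tested. The entry miR-196-y, which has another sequence and another seed, had 4 and 5 reads in 1-month libraries 1 and 2 and none in the other 7. In all, the 4 entries held 172, 391 and 127 reads in the 1-month goats, 6, 0 and 43 in the 12-month goats and 3, 0 and 0 in the 24-month goats.

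**Figure D2:**
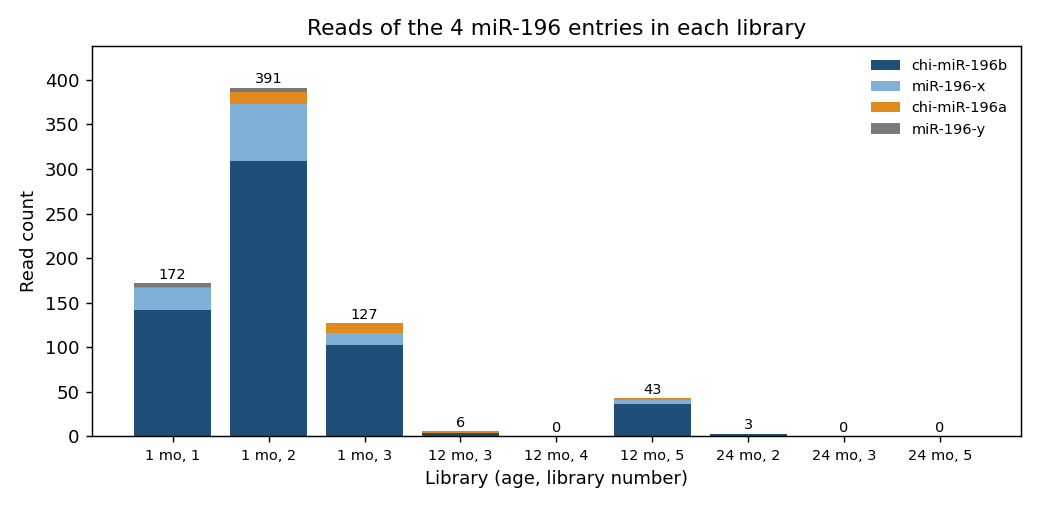
Stacked bars give the read counts of the 4 miR-196 entries in each of the 9 libraries, with the sum above each bar. The 1-month libraries hold 127 to 391 reads, 12-month library 5 holds 43, and the other 5 hold 0 to 6.

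miR-615-y, of the HOXC-encoded miR-615, had 272 reads at 1 month, of which libraries 1 and 2 held 36 and 22 and library 3 the rest. It had 8, 20 and 26 reads in the 12-month goats, and 27, 0 and 0 in the 24-month goats. Its level was 2.95, 1.75 and 15.1 CPM in 1-month libraries 1, 2 and 3, then 1.03, 2.13 and 2.33 CPM, then 2.6, 0 and 0 CPM. The high mean at 1 month came from library 3 alone. 1-month 2 lay within the range of the older goats, and 1-month 1 just above it. The log2 difference was −1.84 (SE 1.27, adjusted p = 0.302) for 12 against 1 month, −1.04 (SE 1.31, adjusted p = 0.998) for 24 against 12 months and −2.88 (SE 1.33, adjusted p = 0.124) for 24 against 1 month, and none passed. Pooled unscaled CPM at 1 month was 4.18 times that at 12 months (exact counting interval 3.11 to 5.71). It was 8.55 times that at 24 months (5.74 to 13.2). These intervals cover counting error only and not the spread between goats. Without 1-month 3 these ratios were 1.33 (0.903 to 1.96) and 2.72 (1.70 to 4.47). Without 24-month 2, which held all 27 reads of its age, the ratio to 24 months was at least 49.1, against the 3 reads that a count of 0 allows over the group, and the edgeR test passed (adjusted p = 0.0172).

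**Figure D3:**
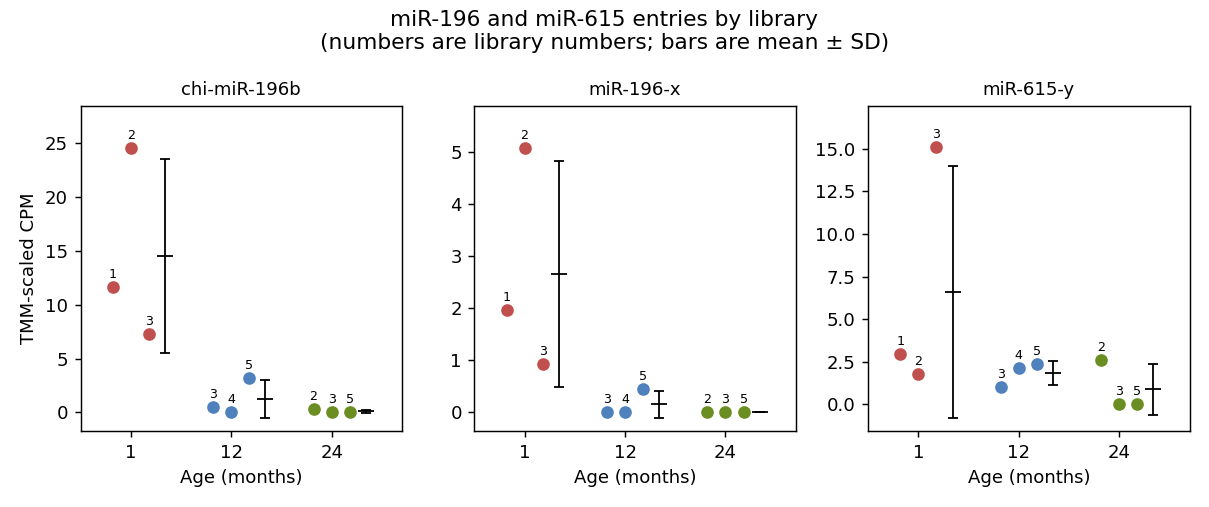
Panels plot chi-miR-196b, its longer form miR-196-x and miR-615-y as TMM-scaled CPM against age in months, 1 numbered point a library, with the mean ± SD of 3 goats as a bar. The 1-month points of both miR-196 entries lie above all later points, library 2 highest, while the high 1-month mean of miR-615-y comes from library 3.

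Counted together, 0 of the 7 tested members were called between 1 and 12 months by edgeR, against 19.2% of all 937 entries (13.2% lower at the later age), with 2 of 7 at an unadjusted p under 0.05 (39.9% of all entries), 2 called by DESeq2 (30.7%) and 2 by limma voom (24.2%). Between 12 and 24 months 0 of 7 were called, against 0.0% of all entries, with 1 of 7 at an unadjusted p under 0.05 (4.27% of all entries) and 0 called by DESeq2 or limma voom (0.0% of all entries by each). Between 1 and 24 months 2 of 7 were called lower, against 17.5% of all entries called lower and 26.3% called in either direction, with 3 of 7 at an unadjusted p under 0.05 (42.6%), and over the 3 ages 2 of 7 were called, against 20.5%. Of all entries called by edgeR, 68.9% were lower at 12 than at 1 month and 66.7% lower at 24 than at 1 month. These shares were 85.6% and 80.8% with library size alone, and 60.7% and 53.7% with upper quartile factors. Both were the 2 forms of miR-196b, and with these forms summed it was 1 call. The ages did not overlap, with the later age lower, for 2 of 7 between 1 and 12 months (22.2% of all entries, and 48.5% in either direction) and for 2 of 7 between 1 and 24 months (25.8%, and 47.2% in either direction). Between 12 and 24 months the ages overlapped for each of the 7 (3.74% of all entries did not overlap and were lower, and 9.82% did not overlap in either direction). The filter asked for 0.967 unscaled CPM in 3 libraries. chi-miR-196b reached that in all 3 1-month libraries and 1 of the 6 later ones, and miR-196-x in 3 and 0, so both could be tested only because they were high at 1 month. The median log2 difference of the 7 was −0.99 for 12 against 1 month and −1.13 for 24 against 1 month, where all entries had −0.02 and −0.06, and −0.14 for 24 against 12 months, where all entries had −0.03. Without the 2 miR-196b forms the medians of the other 5 were −0.65, −0.55 and −0.06 in the same order, and none of these 5 passed. The comparisons with 1 month share their control libraries and are not independent.

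**Figure D4:**
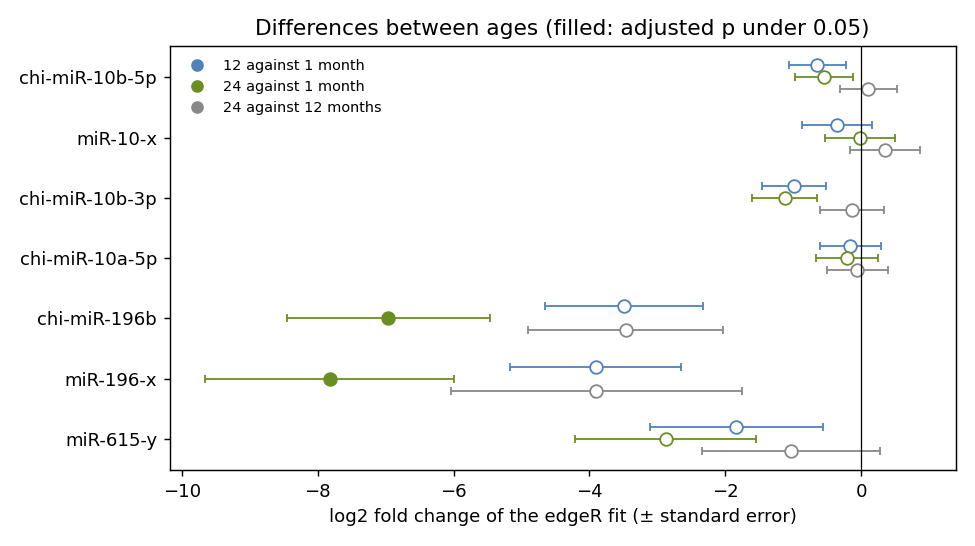
Points give the log2 fold change of the edgeR fit for the 7 tested members in each of the 3 age comparisons, with standard errors as bars, filled where the adjusted p was under 0.05. The 2 filled points are chi-miR-196b and miR-196-x between 24 and 1 month, and fits against an age with almost no reads give no exact size.

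The families took their highest 1-month values from different goats. chi-miR-10b-5p, chi-miR-10b-3p, chi-miR-10a-5p and miR-615-y were highest in 1-month 3 and lowest in 1-month 2, whereas chi-miR-196b and miR-196-x were highest in 1-month 2 and lowest in 1-month 3. miR-10-x was highest in 1-month 1 and lowest in 1-month 2. Marker lists differed between the same libraries. The leukocyte list took 2.62%, 11.0% and 4.46% of reads in 1-month libraries 1, 2 and 3, with 10, 13 and 11 of its 13 entries detected. chi-miR-196b stood at 13.7, 23.3 and 8.85 unscaled CPM in these, so the library with the most leukocyte reads had the most chi-miR-196b, while the other pair ran in the opposite order. In 12-month 5 the leukocyte list took 0.141%, the lowest of the 3 12-month libraries, where chi-miR-196b was highest for that age at 2.98 unscaled CPM. The mesenchymal list (18 entries of miR-143, miR-145, miR-199a, miR-199b and miR-214) took 9.87%, 1.5% and 12.6% in 1-month libraries 1, 2 and 3, the order of chi-miR-10b-3p at 38.5, 19.7 and 74.9 unscaled CPM. In 12-month libraries 3, 4 and 5 the list took 8.69%, 6.65% and 8.25%, again the order of chi-miR-10b-3p at 21.96, 13.81 and 19.56 unscaled CPM. In 24-month libraries 2, 3 and 5 the order was reversed, with 6.3%, 6.63% and 6.27% beside 14.71, 13.11 and 20.65 unscaled CPM. The list's lowest value, 1.5% in 1-month 2, was below that of each older goat, although chi-miR-10b-3p there lay within the range of the older goats. Among the 1-month libraries, every list but the leukocyte list was lowest in library 2. The endothelial list (1.01%, 0.441% and 1.45%) and the hepatic list (0.00451%, 0.00338% and 0.0143%) also had the order of chi-miR-10b-3p in libraries 1, 2 and 3. The part of these cell types in the results was not tested.

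**Figure D5:**
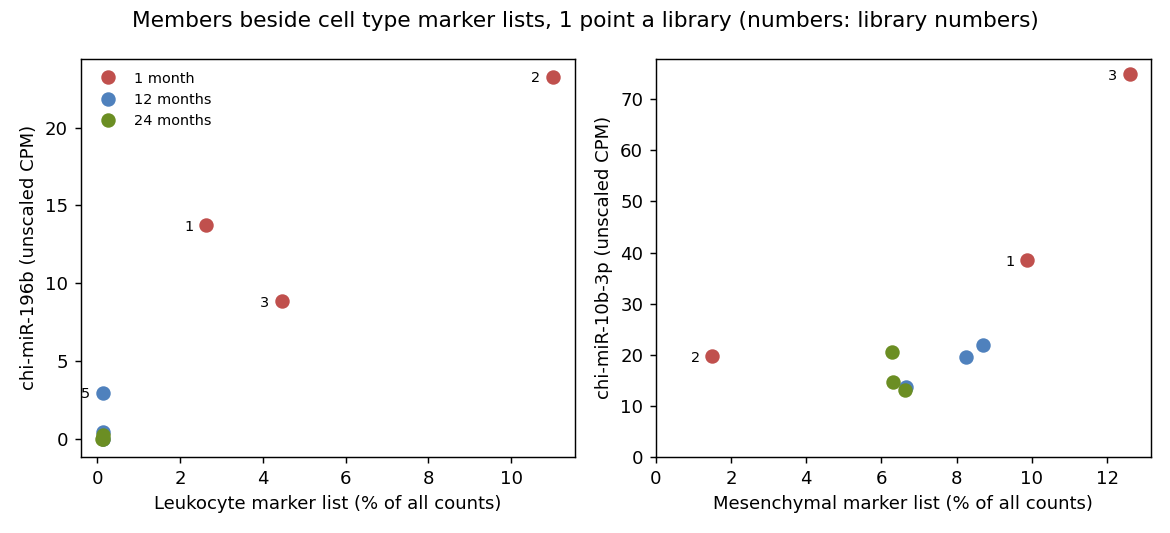
The left panel plots chi-miR-196b (unscaled CPM) against the leukocyte marker list (% of all reads), and the right panel plots chi-miR-10b-3p against the mesenchymal list, 1 point a library, coloured by age, with 1-month libraries and, on the left, 12-month library 5 numbered. 1-month library 2 is highest on the left at 11.0% and 23.3 CPM, and 1-month library 3 is highest on the right at 12.6% and 74.9 CPM.

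Over the 9 libraries, the entry most like chi-miR-10b-3p among 449 named entries with a mean of at least 10 CPM was chi-miR-455-3p (Pearson r = 0.951 of log2(CPM + 1)), a miRNA known from cartilage. It was followed by chi-miR-199a-3p, chi-miR-199b-3p and chi-miR-199c-3p (r = 0.899), which are listed with 1 shared sequence and count once, and by chi-miR-214-3p (r = 0.851), which is transcribed together with miR-199a. Its own 5p arm reached 0.826. The entries most like chi-miR-196b were chi-miR-128-3p (r = 0.957), known in neurons and lymphoid cells, chi-miR-92b (0.948), which has the sequence of chi-miR-92a-3p (0.946), the lymphocyte-enriched miR-181-x (0.947) and chi-miR-130b-3p (0.947). Its longer form miR-196-x reached 0.956, and chi-miR-10b-5p reached 0.199. These values describe points that share their libraries and the split between ages, and the entries were picked for their r.

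miR-99 and miR-100 are relatives of miR-10 in sequence, with the seed ACCCGTA in place of ACCCTGT, and lie outside the Hox clusters.
chi-miR-99a-5p: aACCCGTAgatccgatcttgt
chi-miR-100-5p: aACCCGTAgatccgaacttgt
chi-let-7a-5p: tGAGGTAGtaggttgtatagtt
Of 10 entries of miR-99 and miR-100, 8 were tested and 0 were called by edgeR in any of the 3 comparisons, with 1, 0 and 0 at an unadjusted p under 0.05 for 12 against 1, 24 against 12 and 24 against 1 month. Their median log2 differences were −0.03, −0.09 and 0.09. chi-miR-99a-5p stood at 31940 ± 10760, 44780 ± 6133 and 43670 ± 5436 CPM at 1, 12 and 24 months, and chi-miR-100-5p at 4882 ± 298, 4266 ± 438 and 4728 ± 1417 CPM. The entry miR-99-x stood at 11310 ± 3634, 15670 ± 2127 and 15780 ± 3771 CPM, and chi-miR-99b-5p at 2922 ± 1068, 2628 ± 980 and 2207 ± 253 CPM. chi-let-7a-5p is shown because its bases 3 to 9 read AGGTAGT, the seed of miR-196 shifted by 1. It stood at 24390 ± 5414, 33600 ± 2115 and 56650 ± 20110 CPM. By edgeR it rose between 1 and 24 months (log2 1.22, SE 0.34, adjusted p = 0.026), the comparison in which chi-miR-196b fell. In that comparison 26.3% of all entries were called in either direction. Between 1 and 12 months chi-let-7a-5p was not called (log2 0.46, adjusted p = 0.323). Any link between these miRNAs was not tested. A shifted seed matches other target sites, and no target was measured.

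All 11 members together took 0.698%, 0.305% and 1.00% of reads in 1-month libraries 1, 2 and 3, 0.448%, 0.384% and 0.257% in 12-month libraries 3, 4 and 5, and 0.274%, 0.356% and 0.483% in 24-month libraries 2, 3 and 5. The means were 6692 ± 3510, 3631 ± 969.8 and 3706 ± 1054 unscaled CPM, with all ages overlapping, and they follow chi-miR-10b-5p. The entry chi-miR-196b held 23.3 unscaled CPM of these at most.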

How the data were processed

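The authors deposited 1 table of unscaled read counts per mature miRNA entry in 9 libraries, with the listed sequence, its length (another number, in bases) and the total over libraries, per the file headers. The submitters' processing notes list FastQC and Bowtie, with no version. Genome build, miRNA release and mismatch setting were not given in the sources used here. Counts were tested in all 9 libraries together with edgeR 4.0.16 in R 4.3.3 (filterByExpr with a minimum count of 10 and a minimum total of 15, TMM scaling, and a robust quasi-likelihood F test with 6 residual degrees of freedom), with Benjamini-Hochberg adjustment over 937 entries at 0.05. Standard errors were derived as the absolute log2 difference divided by the square root of its F value. Log2 intervals are 95% intervals from these standard errors and a t quantile. Alternatives were DESeq2 1.42.0, limma voom 3.58.1, other scalings, no filter, the 2 ages compared alone, entries of 1 sequence merged, the replicate number as a block, and each library left out. Summing forms of 1 RNA, count ratios with a library left out, and differences relative to the median of all entries, were chosen after seeing the data. Single-library shares and pooled ratios carry exact 95% intervals for counting error only, since the labels name no molecular identifiers. Bounds against a count of 0 set it to 3 reads and leave out the counting error of the higher count. The script was tested on simulated data. Members and lists were chosen with earlier results of these data known. Named were each member, relatives by sequence (miR-99, miR-100, and let-7a for the miR-196 seed) and the 5 most alike entries for chi-miR-10b-3p and for chi-miR-196b, leaving out candidate entries without a family name. Marker lists for muscle, neural, endothelial, red cell and hepatic entries took 0.0150 to 0.247%, 0.00465 to 0.00971%, 0.441 to 1.45%, 0.0735 to 0.403% and 0.00148 to 0.142% of reads over the 9 libraries.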

Additional observations from a re-analysis of the deposited data

How the results depend on the processing

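The count of members called between 1 and 12 months was 0. It became 2 with library size alone, with no filter on low counts, by DESeq2, by limma voom and with entries of 1 sequence merged. These 2 were chi-miR-196b and its longer form miR-196-x. Over all entries, 181 were called with library size alone, against 180 in the fit reported here. The shares called were 30.7% by DESeq2 and 24.2% by limma voom, against 19.2% by edgeR. Shares for the other settings are not given here, so these moves are no result about the members. On leaving out each library the count ran from 0 to 2. Between 1 and 24 months it was 2 and became 1 with the replicate block and with forms of 1 RNA summed, and ran from 1 to 3 on leaving out libraries; over any age difference it was 2 and became 1 in both these settings, and ran from 2 to 3. Summing forms removes 1 entry by construction, and for the others the cause was not tested. Signs of small, uncalled log2 differences turned. Leaving out libraries gave −0.72 to 0.06, −0.28 to 0.41 and −0.79 to 0.01 for chi-miR-10a-5p (12 against 1, 24 against 12 and 24 against 1 month), −0.0028 to 0.49 for chi-miR-10b-5p and −0.34 to 0.21 for chi-miR-10b-3p (24 against 12 months), and −0.41 to 0.23 for miR-10-x (24 against 1 month). Merged sequences gave 0.11 for chi-miR-10a-5p and 0.06 for chi-miR-10b-3p between 12 and 24 months, and upper quartile factors gave 0.14 and the replicate block 0.19 for miR-10-x between 1 and 24 months. With the block miR-196-x had an adjusted p of 0.0608 between 1 and 24 months. In that fit 1-month 1 and 12-month 4 have numbers of their own at which no other library stands, so they add nothing to it, and 2 residual degrees of freedom remain. Deviations of same-numbered libraries correlated at −0.212 to 0.178 over 5 pairs, against −0.327 to 0.285 for pairs with different numbers. Whether same-numbered libraries share more than a number was not tested. Shares of letters, arms and forms were recomputed only by leaving out libraries. At 12 months, where few miR-196 reads remain, the mean share of chi-miR-196a in the goat-named miR-196 reads was 19.3% and ran from 5.26% (without 12-month 3) to 33.3% (without 12-month 5), and that of miR-196-x beside chi-miR-196b was 6.1% and ran from 0.0% (without 12-month 5) to 12.2% (without 12-month 3). No value was given for chi-miR-196b and miR-196-x between 12 and 24 months with these ages alone, where they miss the filter, nor for miR-196-x without 12-month 5, where both ages have no read. Reads limit miR-196 at 12 and 24 months, where a library's 0 allows up to 0.249 to 0.362 unscaled CPM.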
